A study of Solanum lycopersicum with 2 samples.

Results

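The polyphenol oxidase cluster of tomato (Solanum lycopersicum) was examined in 1 library from anthers and 1 library from young leaves. Its members were chosen by number alone, as every identifier from Solyc08g074620 to Solyc08g074690 in either file, which gave 8 of the 25923 listed genes. The anther file listed all 8 of them, and the leaf file listed 6. They lie on chromosome 8, and 5 of them have the strand entry wat and 3 the entry cri. Both libraries came from untreated glasshouse plants of the cultivar Moneymaker, 8 weeks old. The anther material mixed developmental stages, so a stage cannot be told apart within it. The libraries were made by MACE, a sequencing method for the 3′ ends of polyadenylated transcripts that is meant to give 1 read per transcript whatever its length, so that levels of different genes are compared here without a length correction.

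Polyphenol oxidases are copper enzymes of the plastid that oxidise ortho-diphenols to quinones. The quinones cross-link proteins and polymerise to the brown pigments of cut or bruised tissue. The phenolic substrates are held in the vacuole, so that enzyme and substrate meet mainly when cells are broken. In tomato the enzymes are encoded by a tandem family whose members are known to differ in where they are expressed, among young leaves, gland hairs and flowers, and the family is known for its part in defence against chewing insects and bacterial pathogens.

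The files name no gene, and 0 of their identifiers matched a RefSeq gene table of tomato. That table holds 3 genes with a polyphenol oxidase synonym, all 3 on chromosome 8 and with 5 other genes between the first and the last of them, but it does not tie them to the identifiers used here. Which of the 8 identifiers encode a polyphenol oxidase, and which enzyme of the family each one is, was therefore not checked. The tissue labels could not be checked against marker genes for the same reason.

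The anther library held 12411606 mapped reads and the leaf library 11534512. Levels are given in RPM (reads per 1000000 mapped reads). With 1 library per tissue no test between tissues was possible, and each difference between anthers and leaves is one between these 2 libraries. All intervals are 95% intervals that cover counting error only. In tissue extracts such as these, a lower level in each cell and a smaller number of expressing cells cannot be told apart.

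Summed over its 8 members, the cluster was far more abundant in anthers. It held 16416 reads in anthers and 414 reads in leaves, after rounding. This was 1323 RPM in anthers (1302 to 1343) and 35.9 RPM in leaves (32.5 to 39.5). The sum was thus 36.9-fold higher in anthers (33.4 to 40.7). Taken as a single gene, the cluster would have stood behind 31 genes in anthers and behind 3419 genes in leaves. It took 2.99% of the anther reads on listed genes of chromosome 8, against 0.0712% of such leaf reads.

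The difference rested on 3 of the 8 members, Solyc08g074630.1, Solyc08g074620.1 and Solyc08g074680.2. Together they had 1298 RPM in anthers and 15.7 RPM in leaves, an 82.7-fold difference (71.4 to 96.3). The 5 other members together had 24.9 RPM in anthers and 20.2 RPM in leaves, a 1.24-fold difference (1.04 to 1.47). These groupings were made after the values were seen and are descriptions.

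**Figure D1:**
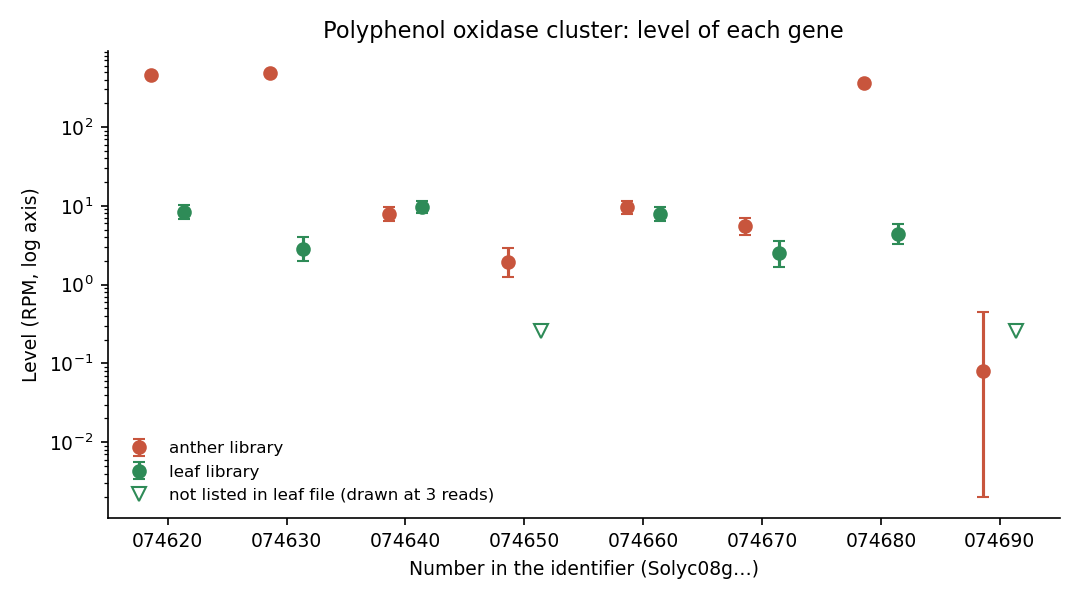
Level of each cluster gene in RPM on a log axis, with anthers left of leaves for each gene; bars are exact 95% Poisson intervals of the counts, and open triangles mark genes not listed in the leaf file, drawn at the 3 reads that a count of 0 allows. Solyc08g074620.1, Solyc08g074630.1 and Solyc08g074680.2 lie between 359 and 487 RPM in anthers and between 2.82 and 8.45 RPM in leaves, while the intervals of the tissues overlap for Solyc08g074640.1 and Solyc08g074660.1.

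Solyc08g074630.1 was the most abundant member in anthers. It had 487 RPM in anthers (6049.5 reads, 475 to 500 RPM) and 2.82 RPM in leaves (32.5 reads, 1.97 to 4.02 RPM). Its level was 173-fold higher in anthers (121 to 248). It ranked 157 among 24538 genes of anthers and 12828 among 22893 genes of leaves.

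Solyc08g074620.1, the identifier before it, had 451 RPM in anthers (5602.5 reads, 440 to 463 RPM) and 8.45 RPM in leaves (97.5 reads, 6.90 to 10.4 RPM). The anther level was 53.4-fold higher (43.5 to 65.6). This fold interval did not overlap that of Solyc08g074630.1, and the pair stood closer in anthers than in leaves. The ratio of Solyc08g074630.1 to Solyc08g074620.1 was 1.08 in anthers (1.04 to 1.12) and 0.333 in leaves (0.220 to 0.504).

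Both genes had a fraction of exactly 0.5 reads in each library, and their sums were whole in each, 11652 reads in anthers and 130 reads in leaves. At least 1 read in each library was therefore not assigned wholly to either of them. The fractions do not tell how many reads were shared, so the separate levels of this pair are uncertain. The part of shared reads in the difference between these neighbours was not tested. Taken as 1 unit, the pair had 939 RPM in anthers and 11.3 RPM in leaves, an 83.3-fold difference (70.1 to 99.8).

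Solyc08g074680.2 had whole reads in both libraries and the strand entry cri, where the pair has wat. It had 359 RPM in anthers (4454 reads, 348 to 370 RPM) and 4.42 RPM in leaves (51 reads, 3.29 to 5.81 RPM). Its 81.2-fold difference (61.6 to 109) was close to that of the pair taken as 1 unit.

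Solyc08g074660.1 and Solyc08g074640.1 were near the same level in both tissues. Solyc08g074660.1 had 9.59 RPM in anthers (119 reads) and 7.98 RPM in leaves (92 reads), a ratio of 1.20 with an interval of 0.908 to 1.60. Solyc08g074640.1 had 7.78 RPM in anthers (96.6 reads) and 9.69 RPM in leaves (112 reads), a ratio of 0.803 with an interval of 0.607 to 1.07. Both intervals hold 1, which leaves room for differences of up to those bounds. The counts of Solyc08g074640.1 were fractional in both libraries, and no other member held fractions that make its sum whole.

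Solyc08g074670.2 had 5.56 RPM in anthers (69 reads, 4.33 to 7.04 RPM) and 2.51 RPM in leaves (29 reads, 1.68 to 3.61 RPM). The ratio was 2.21 (1.41 to 3.54). Among the members with a middling level it was the one whose tissue intervals did not overlap.

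The remaining members had the lowest levels of the cluster in both tissues. Solyc08g074650.2 had 24 reads in anthers, 1.93 RPM (1.24 to 2.88), and was not listed in the leaf file, where a count of 0 allows up to 3 reads, 0.260 RPM. Its 24 anther reads were thus at least 7.43-fold higher than those 3 reads, per mapped read, without the counting error of the anther value. Solyc08g074690.2 had 1 read in anthers and was not listed in the leaf file, so both tissues were within the 3 reads that a count of 0 allows and no fold is given.

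The order of the members differed between the tissues. In anthers the order ran Solyc08g074630.1, Solyc08g074620.1, Solyc08g074680.2, Solyc08g074660.1, Solyc08g074640.1, Solyc08g074670.2, Solyc08g074650.2 and Solyc08g074690.2. The intervals of Solyc08g074660.1 and Solyc08g074640.1 overlapped there, as did those of Solyc08g074640.1 and Solyc08g074670.2, and each other pair of neighbours in the order stood apart by counting error. In leaves Solyc08g074640.1, Solyc08g074620.1 and Solyc08g074660.1 led with overlapping intervals, between 7.98 and 9.69 RPM. Solyc08g074680.2, Solyc08g074630.1 and Solyc08g074670.2 followed at 4.42, 2.82 and 2.51 RPM, and each of these overlapped the next, while Solyc08g074680.2 stood apart from Solyc08g074660.1.

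The make-up of the cluster's reads therefore differed too. Solyc08g074630.1 held 36.9% of the cluster's anther reads (exact binomial interval 36.1% to 37.6%) and 7.85% of its leaf reads (5.55% to 11.0%). Solyc08g074620.1 held 34.1% in anthers and 23.6% in leaves, and Solyc08g074680.2 held 27.1% and 12.3%. Together these 3 members made up 98.1% of the anther reads of the cluster (97.9% to 98.3%) and 43.7% of its leaf reads (38.9% to 48.6%). The largest leaf share was that of Solyc08g074640.1, whose share was 0.588% in anthers and 27.0% in leaves, and its leaf interval (22.8% to 31.6%) overlapped those of Solyc08g074620.1 (19.7% to 28.1%) and Solyc08g074660.1 (18.3% to 26.5%).

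**Figure D2:**
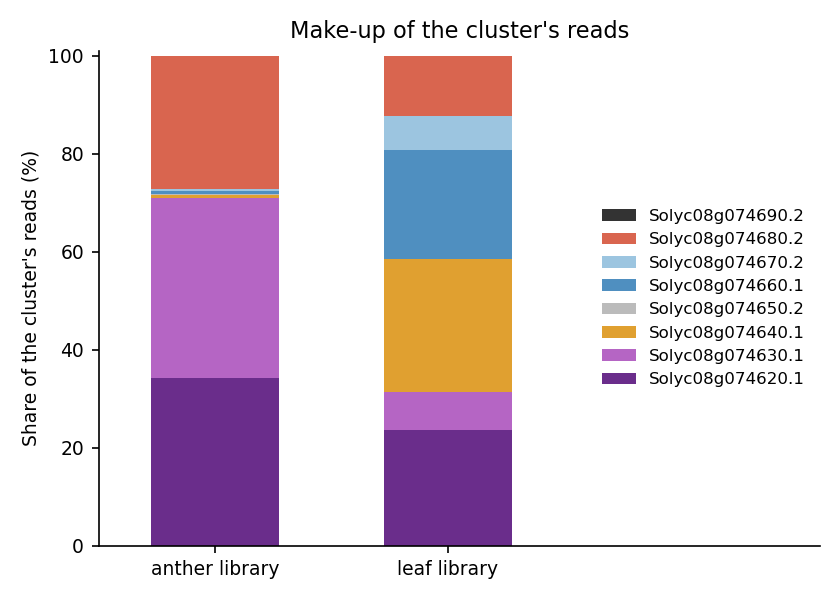
Share of the cluster's reads held by each member, in percent of the cluster's reads in that library, with anthers left of leaves. Solyc08g074620.1, Solyc08g074630.1 and Solyc08g074680.2 fill 98.1% of the anther bar and 43.7% of the leaf bar, and Solyc08g074640.1 and Solyc08g074660.1 take up 27.0% and 22.2% of the leaf bar.

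For comparison with all other genes, a log2 ratio was formed from (anther RPM + 1) and (leaf RPM + 1), and 1 log2 unit or more in either direction counts as a 2-fold difference. The added 1 RPM makes the ratio of low genes smaller. Of the 8 members, 6 had a mean of the 2 libraries of at least 1 RPM and entered this comparison. Solyc08g074650.2, with a log2 ratio of 1.55, and Solyc08g074690.2, with 0.11, did not. A 2-fold or larger difference towards anthers was found for 3 members, against 21.5% of the 17137 genes compared. No member passed 2-fold towards leaves, against 17.5% of all genes. When levels were scaled to the reads on listed genes, 5 members passed towards anthers, Solyc08g074650.2 and Solyc08g074670.2 being added. The leaf count of Solyc08g074650.2 is 0, so it reaches a mean of 1 RPM only when past 2-fold. Its passing was thus fixed by the filter. Over all genes, the count towards anthers rose from 3690 to 4292 with that scaling, under which more genes reached a mean of 1 RPM.

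The log2 ratios were 7.00 for Solyc08g074630.1, 6.05 for Solyc08g074680.2 and 5.58 for Solyc08g074620.1. Those of Solyc08g074670.2, Solyc08g074660.1 and Solyc08g074640.1 were 0.90, 0.24 and -0.28. The median over all 8 members, with those below the filter, was 1.23. Over the 6 members in the comparison it was 3.24, though none of them lay between 0.90 and 5.58. The median over the 17137 genes was 0.15. Ordered from the highest ratio down, Solyc08g074630.1 stood at place 31 of the 17137 genes, Solyc08g074680.2 at place 85 and Solyc08g074620.1 at place 139. Among the 1282 genes of chromosome 8 in the comparison, these members stood at places 2, 5 and 8.

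The same 3 members belong to the abundant genes with a high anther ratio, a class they reach through their anther level alone. Of the 1248 genes whose 2 levels averaged 100 RPM or more, 28.4% passed 2-fold and 9.38% passed 10-fold towards anthers, and all 3 members were among the 117 genes past 10-fold. By ratio they stood at places 29, 69 and 83 of the 1248 genes. At their leaf levels of 2.82 to 8.45 RPM, an average of 100 RPM or more is reached only with a ratio past 10-fold. Their passing of 10-fold was thus fixed by the filter, and these places are descriptions only.

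**Figure D3:**
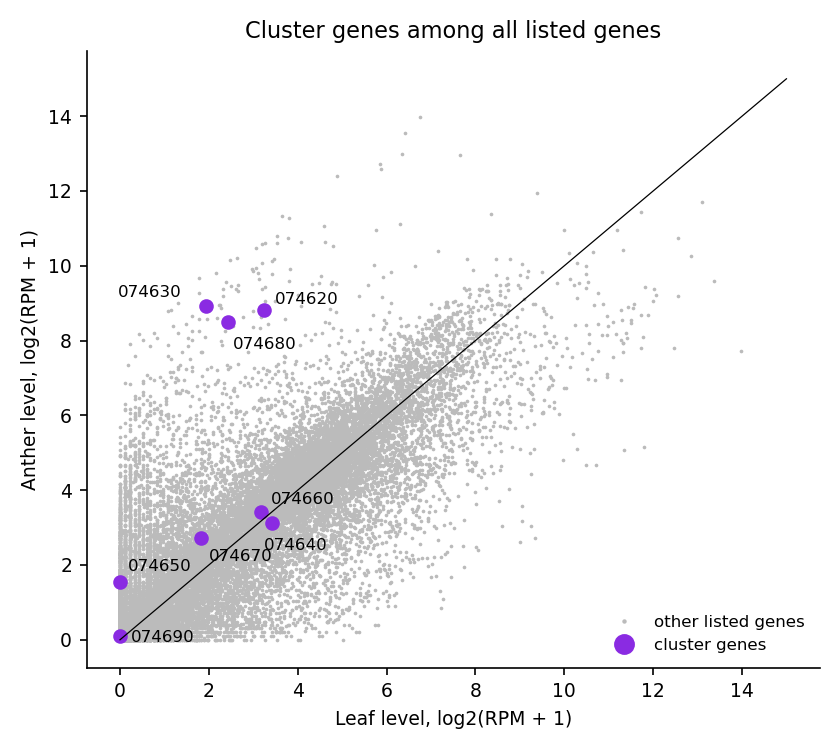
Leaf level (horizontal) and anther level (vertical) of all listed genes, each as log2(RPM + 1), with the 8 cluster genes marked by the number in their identifier and a line at equal levels. Solyc08g074620.1, Solyc08g074630.1 and Solyc08g074680.2 lie 5.58 to 7.00 log2 units above the line, and Solyc08g074640.1 and Solyc08g074660.1 lie beside it.

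By level in these 2 libraries, the gene outside the cluster nearest to Solyc08g074630.1 was Solyc01g099570.2 on chromosome 1, with 498 RPM in anthers and 3.68 RPM in leaves. The next was Solyc03g020060.2 on chromosome 3, with 492 RPM in anthers and 3.77 RPM in leaves. Their distances in log2(RPM + 1) were 0.30 and 0.32. Within the cluster, Solyc08g074680.2 was nearer to Solyc08g074630.1 (0.67) than Solyc08g074620.1 was (1.31). A likeness over 2 values per gene is a description of these libraries only.

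The genes numbered next to the cluster were, as a sum, at the same level in both tissues within counting error. From Solyc08g074520 to Solyc08g074610 before it and from Solyc08g074700 to Solyc08g074790 after it, 17 identifiers were listed. Their summed level was 341 RPM in anthers and 341 RPM in leaves, a ratio of 0.999 (0.956 to 1.04). Of the 11 with a mean of at least 1 RPM, 0 passed 2-fold towards anthers, 3 passed it towards leaves and 8 passed neither. Their log2 ratios ran from -1.37 to 0.54, with a median of -0.01. Inside the cluster the high ratios were not consecutive: Solyc08g074640.1, Solyc08g074650.2, Solyc08g074660.1 and Solyc08g074670.2 lie by number between Solyc08g074630.1 and Solyc08g074680.2, with log2 ratios of -0.28 to 1.55.

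**Figure D4:**
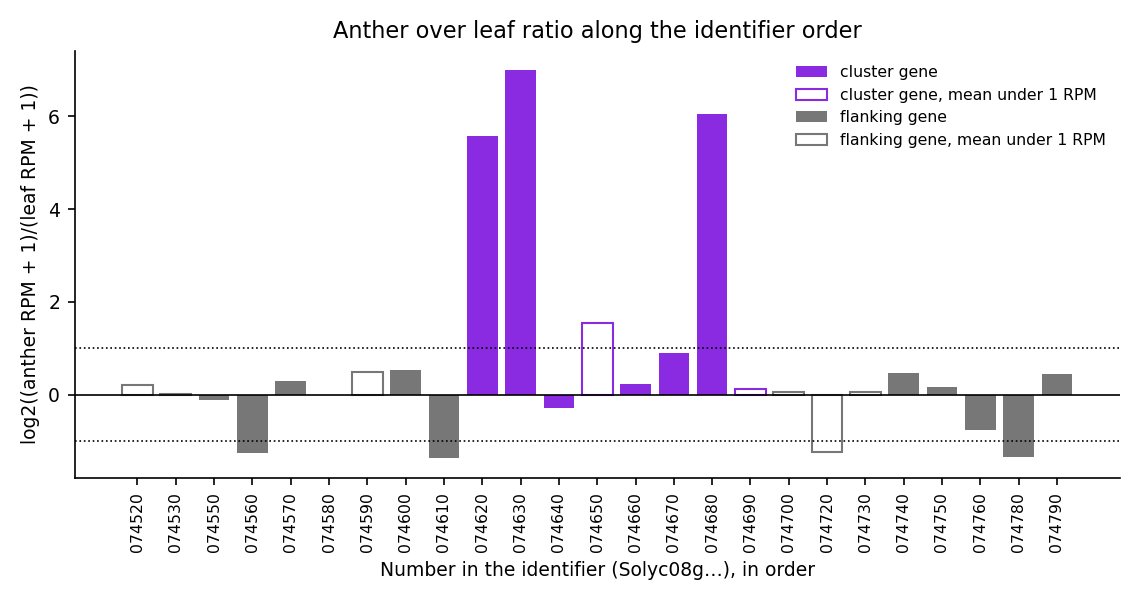
Log2 ratio of anther over leaf, as log2((anther RPM + 1)/(leaf RPM + 1)), for the cluster genes and the 17 listed flanking genes in the order of their numbers; open bars are genes with a mean under 1 RPM and dotted lines mark a 2-fold difference. The ratios of Solyc08g074620.1, Solyc08g074630.1 and Solyc08g074680.2 stand between 5.58 and 7.00, and no flanking gene with a mean of at least 1 RPM is above 0.54.

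The height of the highest read peak, which the files give for each gene, was divided by the gene's reads. The peak exceeded the reads of the gene itself in 356 genes of the anther file and 325 of the leaf file, so it is not limited to the reads counted for the gene, and the quotient is not a share of them. No interval is given for it. Over the 13005 genes that had 20 or more reads in each tissue, the quotient had a median of 26.7% in anthers and 27.0% in leaves, with upper quartiles of 35.1% and 35.2%. For Solyc08g074680.2 it was 28.1% in anthers, below the upper quartile, and 37.3% in leaves, above it. Solyc08g074630.1 had 42.8% in anthers and 55.4% in leaves, and Solyc08g074620.1 had 41.1% and 50.3%. In all 3 the leaf value was the higher one, from leaf peak heights of 19, 18 and 49, and the difference was not tested.

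In Solyc08g074640.1 the peak height was close to the number of reads, with a quotient of 100% in anthers and 99.5% in leaves. Solyc08g074660.1 had 58.0% in anthers and 52.2% in leaves, and Solyc08g074670.2 had 39.1% and 34.5%. The part of the peak heights, or of the fractional reads, in the near equal level of Solyc08g074640.1 was not tested.

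**Figure D5:**
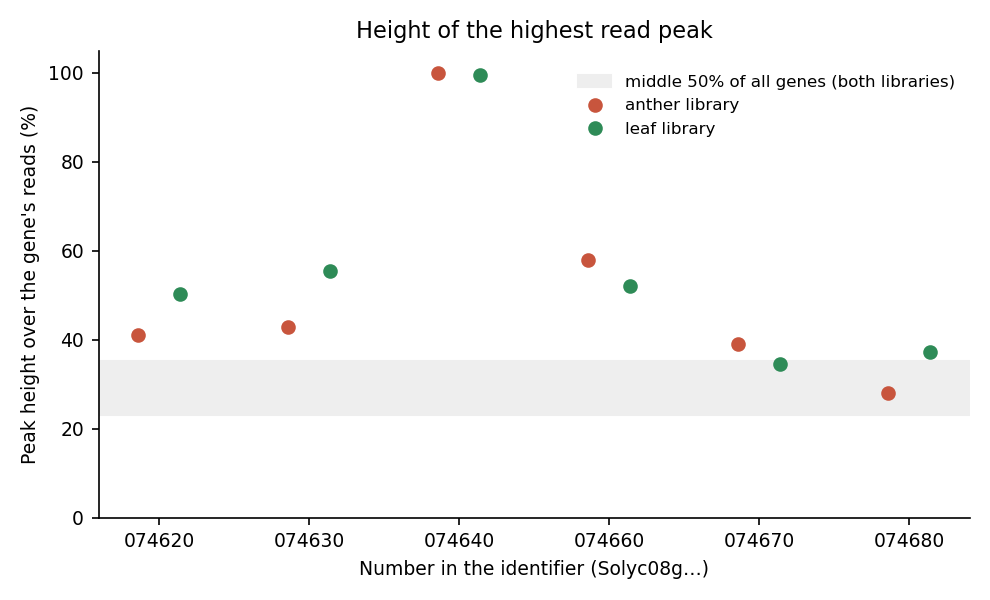
Height of the highest read peak divided by the gene's reads, in percent, for the 6 cluster genes that had 20 or more reads in each tissue, with anthers left of leaves; the grey band spans the middle 50% of all genes with as many reads. Solyc08g074640.1 stands at 100% in anthers and 99.5% in leaves, far above the band.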

How the data were processed

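The authors deposited 1 table per tissue, with estimated counts of reads per gene (whole or fractional), the count of mapped reads of the library, a value per 1000000 and a peak height, per the file headers. The headers call the deposited value per 1000000 a transcript measure. Recomputing it as estimated count over mapped reads, times 1000000, gave the same values within 3.42e-08, so the deposited values are RPM (reads per 1000000 mapped reads), to which the authors applied no length correction. The peak height is a signal deposited by the authors, and its computation is not given in the sources used here. Estimated counts were fractional, beyond 1e-06 of a whole number, for 20.8% of the anther genes and 19.5% of the leaf genes. FastQC was used, per the submitters' processing notes. Aligner, counting tool, genome build and annotation: not given in the sources used here.

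From these values sums, ratios and ranks were computed in Python 3.11.15 with SciPy 1.17.1. A gene listed in 1 file was taken as 0 in the other. Counts were rounded for exact Poisson intervals of levels, exact conditional (Clopper-Pearson) intervals of ratios and exact binomial intervals of shares. These cover counting error only, and reads without molecular identifiers need not be independent molecules. Each read is worth 0.0806 RPM (anthers) or 0.0867 RPM (leaves). Genes averaging 1 RPM or more were compared with a pseudocount of 1 RPM. The computation was tested on simulated independent Poisson counts, so fractional, shared or repeated reads were not part of that test. TMM factors (edgeR 4.0.16) and size factors (DESeq2 1.42.0) served as alternative scalings only, beside other pseudocounts, filters and measures. Every member is named, and of other genes the 2 nearest in level to the member of highest mean. The members, the flanking stretch and the settings were chosen with earlier results of these data known.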

Additional observations from a re-analysis of the deposited data

How the results depend on the processing

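The log2 ratio of the cluster sum, 5.17, stayed positive in each setting tried: it was 5.02 with a pseudocount of 5 RPM, 4.47 with peak heights in place of counts, 4.57 with the 5 members of whole reads alone, 4.62 without Solyc08g074630.1, and 0.29 without the 3 members highest in anthers, a setting added after the data were seen. It was 5.03 with TMM scaling and with DESeq2 size factors, 5.24 with scaling to listed reads, 5.20 with a pseudocount of 0.1 RPM and 5.17 with fractional counts taken down. TMM scaling moved the median of all genes by -0.13 and DESeq2 size factors by -0.12, and the cluster sum by about as much. The 3 members past 2-fold towards anthers became 5 when reads were scaled to those on listed genes. There Solyc08g074670.2 came to 1.02, and Solyc08g074650.2 came to enter at a mean of 1 RPM, where its leaf count of 0 fixed its passing. They became 4 with a pseudocount of 0.1 RPM, through Solyc08g074670.2 at 1.11. With no filter, where all 8 members entered, they became 4 through Solyc08g074650.2 at 1.55. They became 2 with Solyc08g074620.1 and Solyc08g074630.1 taken as 1 gene, also added later. No setting called a member higher in leaves. The share of the most abundant member was 40.8% of the anther and 43.6% of the leaf value with peak heights, and 54.0% of the anther reads without Solyc08g074630.1. Single members kept their sign, with ranges of 5.98 to 7.38 for Solyc08g074630.1, 5.27 to 6.31 for Solyc08g074680.2, 5.08 to 5.72 for Solyc08g074620.1 and 0.47 to 4.35 for Solyc08g074650.2, which depends on the pseudocount because its leaf count is 0. Among all genes, 3690 and 3006 past 2-fold towards anthers and towards leaves became 2261 and 1970 with a pseudocount of 5 RPM, 1782 and 1799 where only genes averaging 10 RPM or more entered, and 1710 and 1228 at a log2 ratio of 2, each by construction. In the settings where more members passed, the counts over all genes rose too. They were 4183 and 3378 with a pseudocount of 0.1 RPM, 3996 and 3133 with no filter, and 4292 and 3093 with scaling to listed genes. The flanking median lay between -0.15 and 0.06 and changed sign with scaling to listed genes and with no filter. With 1 library per tissue, leaving out a replicate could not be tried. A paired analysis was not possible for the same reason.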
